A study of Homo sapiens with 12 samples.

Results

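Voltage-gated ion channels and the wider family of potassium channels were followed through treatment with the BRAF inhibitor vemurafenib in COLO858 and MMACSF, a pair of BRAF-mutant melanoma cell lines. Genes were taken by symbol: those beginning with KCN, with SCN and a digit, or with CACN, and holding no hyphen. This rule found 138 of the 23273 genes in each line's table and used no expression value. Cells of each line, seeded in 10-cm plates, received either DMSO, the vehicle, or 0.2 μM vemurafenib for 24 or 48 h, and RNA was sequenced from 2 replicates per condition, 12 libraries in all. The labels do not say how long the DMSO cells were cultured, and a single DMSO pair per line served as the reference for 24 h and for 48 h. Each model is a single cell line grown alone in culture. Nothing in the labels says that the replicates came from separate cultures on separate days, so the p-values measure the spread between these plates, which may be technical.

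Voltage-gated channels are membrane pores that open when the membrane depolarises; sodium and calcium channels let positive charge in, and potassium channels let it out. Voltage-gated potassium (Kv) channels are built from alpha subunits and modified by auxiliary subunits, whereas inward rectifiers (Kir) and tandem-pore (K2P) channels hold the resting potential and calcium-activated (KCa) channels open when cytosolic calcium rises. In melanocytes and melanoma, which arise from the neural crest, potassium channels are known for their part in setting membrane potential, cell volume and proliferation.

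Levels were read as FPKM (sequenced fragments relative to transcript length in kilobases and to all mapped fragments), a unit that accounts for gene length and so can be set side by side between genes of a library. A gene was called measured in a line when its group mean reached 1 FPKM in at least 1 of the 3 conditions. By this criterion 27 of the 138 genes were measured in COLO858 and 29 in MMACSF, with 20 measured in both lines and 36 in either. Another 102 were measured in neither, of which 20 were listed at 0 in all 12 libraries. Values of 0 were read with care, because TUBB and RPS18, out of 20 genes that all cells use, were also listed at 0 in all 12 libraries. Just inside the minimum lay KCNRG in COLO858 (1.16 FPKM in its highest group) and KCNJ10 in MMACSF (1.02), and just outside lay SCN2A (0.96) and KCNMA1 (0.94). In DMSO, 11 of the 27 genes measured in COLO858 and 8 of the 29 in MMACSF stood under the minimum and were admitted by a drug-treated group alone.

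The pore-forming genes of excitable cells were mostly under the minimum in both lines. Of 10 calcium channel alpha1 (pore) genes, 0 were measured in COLO858 and 1 in MMACSF, and of 14 sodium channel genes 3 and 2 were measured. Kv alpha subunits had 40 genes, of which 8 were measured in each line. Potassium channel auxiliary subunits were the group best represented in MMACSF, with 9 of 13 measured against 4 in COLO858. Inward rectifiers gave 4 of 16 genes in COLO858 and 2 in MMACSF, tandem-pore channels 2 and 1 of 15, the calcium-activated family with its subunits 3 of 12 in each line, and calcium channel auxiliary subunits 3 of 16 in each. The non-coding genes KCNQ1OT1 and KCNQ1DN, caught by the symbol rule, were measured in neither line. Few genes reached 10 FPKM in any condition, among them KCNS3 and KCNJ13 in COLO858 and KCNAB2, KCNJ13 and KCNS3 in MMACSF.

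**Figure D1:**
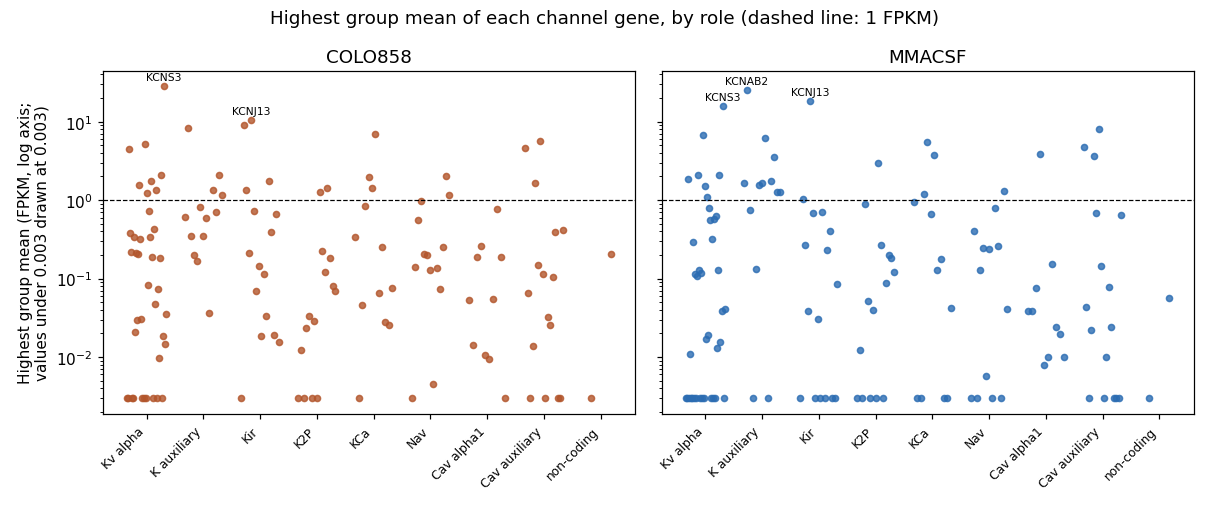
Highest of the 3 group means of 136 channel genes (FPKM, log axis, values under 0.003 drawn at 0.003), arranged by role for COLO858 and MMACSF. Most points lie below the dashed line at 1 FPKM, and the plotted genes at 10 FPKM or more are named.

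Summed over all 138 genes, channel transcripts stood at 76.4 and 66.5 FPKM in the DMSO libraries of COLO858, 104 and 100.3 at 24 h, and 97.6 and 97.4 at 48 h. In MMACSF the sums were 93.6 and 88.0 in DMSO, 126 and 123 at 24 h, and 129 and 132 at 48 h. In both lines every drug library lay above both DMSO libraries. Single genes made up much of these rises. From DMSO to 48 h the mean of KCNS3 went from 3.84 to 28.1 FPKM in COLO858, and that of KCNJ13 from 0.787 to 18.1 in MMACSF. By log2 fold-change at 48 h, 14 measured channel genes were higher and 13 lower in COLO858, and 19 and 10 in MMACSF. Of all genes tested, 48.7% were higher at 48 h in COLO858 and 54.6% in MMACSF. The sum of FPKM over all genes ranged from 670310 to 1013040 per library in COLO858 and from 726083 to 856083 in MMACSF, and it is not a measure of depth, which is unknown for these values. In bulk RNA of this kind, fewer cells of a type and less RNA per cell cannot be told apart.

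The lines were checked against marker genes. SPRY4, a target of MAPK signalling, fell from 271 and 277 FPKM in DMSO to 8.58 and 8.92 at 24 h in COLO858, and from 35.1 and 36.4 to 1.92 and 2.28 in MMACSF. Over 7 melanocytic genes the summed level was 699 to 4142 FPKM in COLO858 and 11160 to 17550 in MMACSF. The pigment cell genes MITF (56.2 to 125 FPKM) and SOX10 were present in COLO858, whereas its MLANA stayed at 0.299 to 0.725 and its TYR at 0.282 to 1.21. Of 8 markers of other cell types none reached 1 FPKM, their sums ran from 0.583 to 0.931 in COLO858 and from 0.255 to 0.495 in MMACSF, and 3 and 4 of them were listed at 0 in every library of the line.

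Which channels responded to the drug was tested with a linear model on log2(FPKM + 1) across all genes of a line (limma, two-sided, Benjamini-Hochberg adjusted over every gene tested, threshold 0.01, the threshold used in the study). On this scale a fold-change understates the change of a gene at low level. The minimum also admits a gene through the condition where it is high. Of the channel genes, 20 of 27 in COLO858 and 13 of 29 in MMACSF stood under it in at least 1 condition. In COLO858, KCNJ13, KCNJ10 and KCNN2 were under it in DMSO, and KCNC4 and KCNG1 under the drug at both times. How far the minimum shapes the shares below was not tested. In COLO858, 6 of 27 channel genes passed at 24 h, against 9.82% of all 12696 genes tested. KCNJ13, KCNJ10, KCNN2 and KCNS3 rose, where 4.11% of all genes did, and KCNC4 and KCNG1 fell, where 5.71% did. At 48 h again 6 of 27 passed, against 9.47% of all genes, with KCNJ13, KCNN2, KCNS3 and KCNA2 higher (4.74% of all genes) and KCNAB2 and KCNQ5 lower (4.73%). In MMACSF, KCNJ13 alone of 29 channel genes passed at 24 h and at 48 h, against 5.83% and 8.83% of the 12599 genes tested (2.22% and 3.42% higher, 3.6% and 5.41% lower). Between 24 and 48 h no channel gene passed in either line in limma, against 1.38% of all genes in COLO858 and 0.222% in MMACSF. At an unadjusted p under 0.05 the counts between 24 and 48 h were 10 of 27 and 3 of 29, where 20.1% and 6.98% of all genes stood under it.

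The median channel gene stood 0.14 higher at 24 h and 0.34 higher at 48 h on the log2 scale in COLO858, beside 0.06 and -0.01 for all genes tested, with 15 and 14 of 27 above 0. In MMACSF the medians were 0.15 and 0.14, beside 0.07 and 0.06 for all genes, with 19 of 29 above 0 at each time. Of all genes tested, 53.8% at 24 h and 48.7% at 48 h lay above 0 in COLO858, and 55.8% and 54.6% in MMACSF. Genes admitted by a drug-treated group alone, 11 of the 27 and 8 of the 29, stand higher in that group than in DMSO by the choice itself. The medians and the counts here are therefore not independent of the minimum, and a shift apart from it was not tested. At an adjusted p under 0.05, 12 of 27 channel genes in COLO858 passed at 24 h and 17 of 27 at 48 h, where 25.8% and 26% of all genes did. The MMACSF counts at 0.05 were 5 and 10 of 29, where 20.3% and 24.1% of all genes passed.

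**Figure D2:**
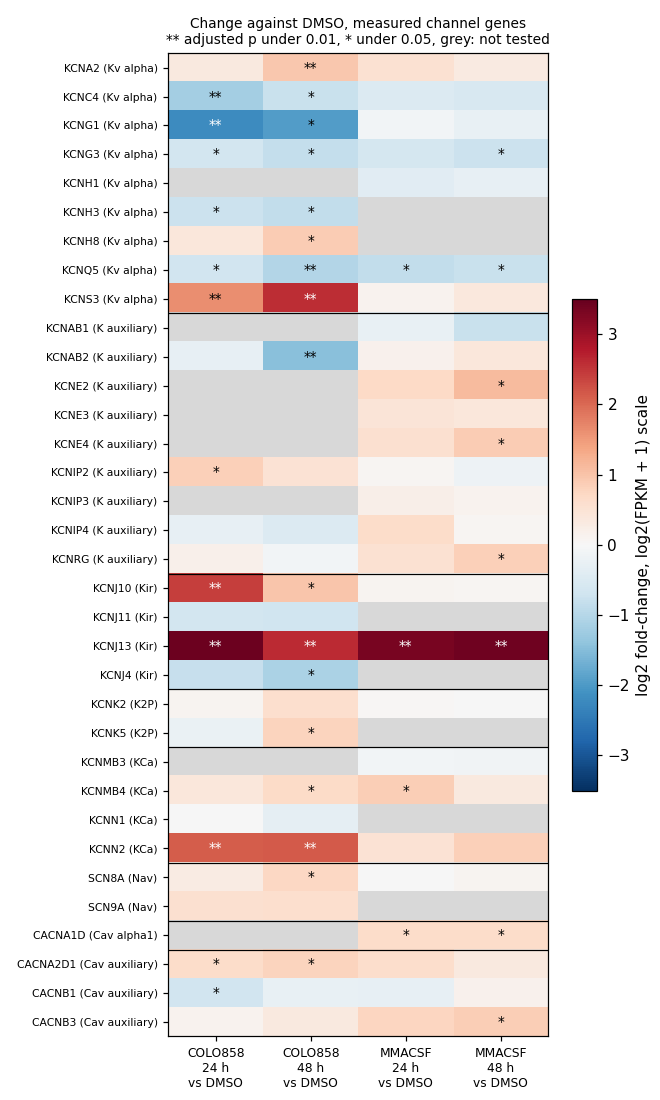
Change of 34 measured channel genes against DMSO (colour, log2 fold-change of FPKM + 1, limma), with genes in rows by role and the 4 drug conditions in columns. KCNJ13 is dark red in all 4 columns. In COLO858, KCNS3 and KCNN2 are red at both times, and KCNJ10 is red at 24 h and paler at 48 h. In MMACSF, KCNS3 and KCNJ10 are pale, and KCNN2 at 48 h has a shade close to that of KCNJ10 at 48 h in COLO858.

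The promoters of the 4 genes that rose in COLO858 at 24 h are shown so that the sequences next to their starts can be compared. The sequences come from RefSeq (GRCh38.p14), run from 250 bases before to 50 after the annotated gene start, and are written 5′ to 3′ on the strand of the gene. Both strands were searched for CACGTG and CATGTG, forms of the E-box that MITF binds, and for TGANTCA, the AP-1 motif. Capitals mark the single match, CATGTG read on the other strand as CACATG, which begins at -112 from the gene start of KCNJ13.

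KCNJ13, chr2:232776516-232776815, minus strand: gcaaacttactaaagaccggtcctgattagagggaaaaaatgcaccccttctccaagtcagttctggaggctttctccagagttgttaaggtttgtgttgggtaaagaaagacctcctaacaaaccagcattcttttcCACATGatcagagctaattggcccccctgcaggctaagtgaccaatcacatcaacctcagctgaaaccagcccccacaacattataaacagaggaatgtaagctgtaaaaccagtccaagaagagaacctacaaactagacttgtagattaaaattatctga

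KCNJ10, chr1:160070111-160070410, minus strand: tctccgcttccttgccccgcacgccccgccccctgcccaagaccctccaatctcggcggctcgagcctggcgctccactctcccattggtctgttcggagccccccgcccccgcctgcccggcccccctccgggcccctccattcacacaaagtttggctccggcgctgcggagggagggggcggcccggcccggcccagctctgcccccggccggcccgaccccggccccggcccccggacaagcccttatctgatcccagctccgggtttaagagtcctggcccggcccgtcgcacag

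KCNN2, chr5:114361820-114362119, plus strand: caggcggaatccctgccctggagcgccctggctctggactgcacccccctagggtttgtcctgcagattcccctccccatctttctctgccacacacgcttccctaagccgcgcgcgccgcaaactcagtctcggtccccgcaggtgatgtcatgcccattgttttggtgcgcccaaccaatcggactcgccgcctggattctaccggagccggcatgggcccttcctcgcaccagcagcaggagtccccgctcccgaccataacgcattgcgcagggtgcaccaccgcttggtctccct

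KCNS3, chr2:17877597-17877896, plus strand: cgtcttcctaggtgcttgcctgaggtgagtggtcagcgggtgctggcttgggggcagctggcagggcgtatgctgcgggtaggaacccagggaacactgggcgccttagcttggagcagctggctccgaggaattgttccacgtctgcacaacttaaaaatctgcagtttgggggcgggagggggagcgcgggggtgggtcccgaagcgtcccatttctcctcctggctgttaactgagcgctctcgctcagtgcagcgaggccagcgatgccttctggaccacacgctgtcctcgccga

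Of the 36 measured channel genes 29 had a promoter in the RefSeq table. CATGTG was in 3 of these 29 (KCNE2, KCNJ13 and KCNK2) and in 11.2% of all 27305 promoters, CACGTG in 0 of 29 and 7.43%, and TGANTCA in 1 of 29 (KCNJ4) and 7.76%. A match describes letters in this window only and is not a binding site, and the build of these windows is not that of the expression files.

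Among the inward rectifiers, KCNJ13 (Kir7.1, a channel of epithelia with low conductance) moved most. The gene lies at chr2:233630512-233641275 on the minus strand (GRCh37, GENCODE v44 lifted to that build). In COLO858 it was at 0.039 and 0.076 FPKM in DMSO, 9.44 and 11.3 at 24 h, and 4.67 and 6.43 at 48 h. In MMACSF the values were 0.706 and 0.867 in DMSO, 13.8 and 20.7 at 24 h, and 15.2 and 21.1 at 48 h. In each line all 4 drug libraries stood far above both DMSO libraries. COLO858 showed a log2 fold-change of 3.42 ± 0.19 (SE) at 24 h (limma adjusted p = 0.000829) and 2.62 ± 0.19 at 48 h (0.00145). In MMACSF it was 3.33 ± 0.25 at 24 h (0.00215) and 3.40 ± 0.25 at 48 h (0.00144), or 21.9-fold and 23.0-fold by the ratio of group means. The same ratios in COLO858 were 180.2 and 96.2, taken over a DMSO level close to 0.

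On the log2(FPKM + 1) scale the 2 lines did not differ detectably in this response, by 0.10 ± 0.33 at 24 h (limma adjusted p = 0.931) and by -0.79 ± 0.33 at 48 h (0.164). A p that misses the threshold does not show that they act alike. The added 1 FPKM exceeded both DMSO means (0.058 FPKM in COLO858 and 0.787 in MMACSF). At both times these differences therefore understate how much larger the ratios of means were in COLO858. With a pseudocount of 0.1 FPKM the 48 h difference turned to 0.81 (adjusted p = 0.242), so its direction depended on the pseudocount. Leaving out 1 library at a time left the COLO858 change at 24 h between 3.30 and 3.54, and it missed the threshold only without the second DMSO replicate (adjusted p = 0.0108). The 48 h change passed in 3 of 6 such fits, at 2.42 to 2.81 with an adjusted p of 0.00647 to 0.0154; it missed without either DMSO replicate and without the second 48 h replicate. In MMACSF the 24 h change passed in 0 of 6 (adjusted p 0.0105 to 0.0247) and the 48 h change in 2 of 6 (0.00383 to 0.0192), those without a 24 h library. KCNJ13 lies within GIGYF2 on the opposite strand and shares 22.3% of its exon bases with it. The kit was stranded but the strand setting of the counting is not given, and GIGYF2 was at 14.3 and 17.4 FPKM in DMSO, 22.9 and 28.5 at 24 h and 17.9 and 20.5 at 48 h in COLO858 and at 11.5 to 17.4 in MMACSF. Its part in the KCNJ13 values was not tested.

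KCNJ10 (Kir4.1, the buffering potassium channel of glia, chr1:159968441-160039950, minus strand) had its highest values at 24 h in COLO858. Its values were 0.815 and 0.991 FPKM in DMSO, 8.14 and 10.2 at 24 h, and 2.69 and 2.74 at 48 h. The drug libraries stood above DMSO at both times, and the 48 h pair lay below the 24 h pair. The gene rose 10.2-fold at 24 h by the ratio of means (log2 fold-change 2.41 ± 0.16, limma adjusted p = 0.00118), while the 48 h change of 0.97 ± 0.16 (0.0132) and the step from 24 to 48 h of -1.45 ± 0.16 (0.0121) missed the threshold. The 48 h change passed with a pseudocount of 0.1 FPKM (0.00782), with median-ratio rescaling of the libraries (0.00787) and without small RNA genes (0.00788), and the step passed in the latter pair of fits (0.00728 and 0.00536).

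In MMACSF, KCNJ10 held at 0.75 and 1.01 FPKM in DMSO, 0.966 and 1.08 at 24 h, and 0.868 and 1.05 at 48 h, and the groups overlapped. The difference of lines at 24 h was 2.30 ± 0.19 (limma adjusted p = 0.00042) and passed with any 1 of the 12 libraries left out (0.000993 to 0.00313), whereas that at 48 h was 0.91 ± 0.19 (0.016). The COLO858 change itself passed in 3 of 6 such fits (0.0058 to 0.0128), missing without either DMSO replicate or the second 24 h replicate. PIGM, which lies within the span of KCNJ10 on the same strand and shares none of its exon bases, read 4.11 and 5.79 FPKM in DMSO, 17.4 and 22.7 at 24 h, and 10.1 and 12.5 at 48 h in COLO858. In MMACSF, PIGM read 5.30 and 7.28 in DMSO, 8.94 and 11.1 at 24 h, and 9.26 and 11.7 at 48 h. The part of PIGM reads in the KCNJ10 values was not tested.

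The other measured inward rectifiers, KCNJ4 and KCNJ11, were measured in COLO858 alone and stood lower in every drug library than in DMSO. KCNJ4 was at 2.28 and 1.28 FPKM in DMSO and 0.106 and 0.463 at 48 h (log2 fold-change -1.10, limma adjusted p = 0.0343). KCNJ11, the pore of the ATP-sensitive potassium channel, was at 1.67 and 1.02 in DMSO and 0.593 and 0.31 at 48 h (adjusted p = 0.0556). Neither passed the threshold, and both were named after their values were seen, to complete the group.

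In the calcium-activated family, KCNN2 (SK2, a small-conductance channel gated by calmodulin, chr5:113391623-113832197, plus strand) rose in COLO858 and held its level. It was at 0.707 and 0.93 FPKM in DMSO, 7.23 and 6.45 at 24 h, and 6.72 and 7.28 at 48 h. The 4 drug libraries lay well above DMSO and overlapped between times. These are log2 fold-changes of 2.11 ± 0.15 at 24 h (limma adjusted p = 0.00138) and 2.14 ± 0.15 at 48 h (0.00129), or 8.36-fold by the ratio of means at 24 h.

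In MMACSF, KCNN2 started higher, at 1.39 and 1.91 FPKM, and was 3.49 and 2.15 at 24 h and 4.06 and 3.42 at 48 h, above DMSO in all 4 drug libraries. Its changes there, 0.51 ± 0.23 (limma adjusted p = 0.177) and 0.84 ± 0.23 (0.0515), did not pass. The lines differed by 1.60 ± 0.27 at 24 h (0.00879) but not past the threshold at 48 h (1.30 ± 0.27, 0.0136). The COLO858 calls held in 2 of 6 fits with a library left out at each time, those without a library of the other drug time, with an adjusted p of up to 0.0152 at 24 h and 0.0147 at 48 h. The difference of lines at 24 h passed in 1 of 12 such fits (0.00685 to 0.0379) and missed with a pseudocount of 0.1 FPKM or with no minimum.

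KCNMB4, a beta subunit that modifies the large-conductance KCa channel (chr12:70760070-70828072, plus strand), was the calcium-activated gene of highest level in MMACSF. It was at 2.34 and 2.77 FPKM in DMSO, 5.38 and 5.49 at 24 h, and 3.0 and 4.04 at 48 h there (24 h log2 fold-change 0.86 ± 0.18, limma adjusted p = 0.0262). In COLO858 it was at 0.638 and 1.15 in DMSO, 1.40 and 1.54 at 24 h, and 1.88 and 2.07 at 48 h (48 h log2 fold-change 0.66 ± 0.18, limma adjusted p = 0.0487). Every drug library lay above both DMSO libraries in each line, and no change passed. The pore it partners, KCNMA1, was under the minimum in both lines, from 0.019 to 1.13 FPKM in MMACSF and from 0.032 to 0.422 in COLO858. The remaining genes of the family, KCNN1 in COLO858 and KCNMB3 in MMACSF, had no adjusted p under 0.05 against DMSO, and KCNMB3 shares 38.0% of its exon bases with PIK3CA on the opposite strand.

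Among the Kv alpha subunits, KCNS3 (Kv9.3, a silent subunit that works only in company with another Kv alpha, chr2:18059114-18542882, plus strand) reached the highest level of any channel gene in COLO858. Its FPKM there was 3.71 and 3.96 in DMSO, 12.5 and 15.3 at 24 h, and 27.8 and 28.4 at 48 h. The 3 conditions did not overlap and followed each other upward. KCNS3 rose 3.62-fold at 24 h (log2 fold-change 1.62 ± 0.15, limma adjusted p = 0.00281) and 7.32-fold at 48 h (2.59 ± 0.15, 0.000941), and the step between the times was 0.97 ± 0.15 (0.0296).

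In MMACSF, KCNS3 was already at 12.7 and 11.4 FPKM in DMSO, with 13.8 and 12.6 at 24 h and 16.8 and 14.9 at 48 h. Its changes there were 0.12 ± 0.14 (limma adjusted p = 0.571) and 0.37 ± 0.14 (0.11). The response of COLO858 exceeded that of MMACSF by 1.50 ± 0.18 at 24 h (0.00217) and 2.22 ± 0.18 at 48 h (0.000167), and the 48 h difference passed with any 1 of the 12 libraries left out (0.000311 to 0.00151). The 24 h difference passed in 9 of those 12 fits (up to 0.0126). Within COLO858 the 24 h call was lost without any 1 of the 6 libraries (0.0111 to 0.024), and the 48 h call held in 2 of 6 (0.00465 to 0.0121), those without a 24 h library.

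KCNA2 (Kv1.2, a delayed rectifier of axons, chr1:111062459-111174096, minus strand) was at 1.94 and 1.71 FPKM in DMSO, 2.52 and 2.66 at 24 h, and 4.71 and 4.24 at 48 h in COLO858. The 3 conditions did not overlap, and the gene rose at 48 h by 0.95 ± 0.14 on the log2 scale (limma adjusted p = 0.00924). This call was lost without any 1 of the 6 libraries (0.026 to 0.0576), with no minimum (0.0163) and with median-ratio rescaling (0.0107). In MMACSF, KCNA2 was at 1.03 and 0.891 in DMSO, 2.11 and 1.63 at 24 h, and 1.32 and 1.58 at 48 h, above DMSO throughout, with adjusted p of 0.0773 and 0.225. The difference of lines at 48 h, 0.64 ± 0.18, did not pass the threshold (limma adjusted p = 0.0479).

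The Kv alpha genes KCNG1, KCNC4 and KCNQ5 fell in COLO858. KCNG1 (Kv6.1, another silent subunit, chr20:49620193-49639644, minus strand) was at 6.72 and 3.66 FPKM in DMSO, 0.196 and 0.424 at 24 h, and 0.909 and 0.26 at 48 h in COLO858. It fell 16.7-fold at 24 h by the ratio of means (log2 fold-change -2.20 ± 0.32, limma adjusted p = 0.00908), and the 48 h change was -1.95 ± 0.32 (0.0127). In MMACSF, KCNG1 was at 7.50 and 5.66 in DMSO, 9.79 and 3.53 at 24 h, and 6.51 and 4.32 at 48 h, and all groups overlapped. The spread in MMACSF was wide, and the difference of lines at 24 h, -2.10 ± 0.61, had an adjusted p of 0.0753. The COLO858 call was lost without any 1 of the 6 libraries (0.0144 to 0.0515) and also with a pseudocount of 0.1 FPKM (0.0136), with no minimum (0.0141) and with median-ratio rescaling (0.0108), whereas the 48 h change passed without small RNA genes (0.00486).

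KCNC4 (Kv3.4, a fast inactivating A-type channel, chr1:110752936-110825722, plus strand) was at 1.83 and 1.27 FPKM in DMSO, 0.128 and 0.109 at 24 h, and 0.584 and 0.37 at 48 h in COLO858. It fell at 24 h by 1.18 on the log2 scale (SE 0.17, limma adjusted p = 0.00832), and at 48 h the change was -0.78 ± 0.17 (0.027). In MMACSF it went from 2.34 and 1.85 in DMSO to 1.52 and 0.923 at 24 h and 1.02 and 1.18 at 48 h, lower in each drug library, with adjusted p of 0.148 and 0.101. The 24 h call in COLO858 was lost without any 1 of the 6 libraries (0.016 to 0.0463) and with median-ratio rescaling (0.0103).

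KCNQ5 (Kv7.5, a subunit of M-type currents, chr6:73331520-73908576, plus strand) lay lower under the drug in both lines. COLO858 had 1.88 and 2.28 FPKM in DMSO, 0.905 and 0.977 at 24 h, and 0.44 and 0.606 at 48 h. MMACSF had 1.89 and 2.24 in DMSO, 0.556 and 0.836 at 24 h, and 0.799 and 0.733 at 48 h. In each line all drug libraries lay below DMSO. KCNQ5 fell in COLO858 at 48 h (log2 fold-change -1.01 ± 0.15, limma adjusted p = 0.00876), a call lost without any 1 of the 6 libraries (0.0212 to 0.0483) and with a pseudocount of 0.1 FPKM (0.0121). Its changes in MMACSF, -0.86 ± 0.17 (0.0237) and -0.79 ± 0.17 (0.0247), did not pass. The difference of lines at 48 h was -0.22 ± 0.19 (0.518).

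Of the other 4 measured Kv alpha genes, chosen for naming after their values were seen, KCNG3 and KCNH3 stood lower in every COLO858 drug library than in DMSO and KCNH8 stood higher. KCNG3, a further silent subunit, was at 1.07 and 1.41 FPKM in DMSO and 0.283 and 0.244 at 48 h in COLO858 (limma adjusted p = 0.0137), and at 1.61 and 1.39 and then 0.566 and 0.396 in MMACSF (0.025). KCNH8 was at 0.269 and 0.248 in DMSO and 1.20 and 1.48 at 48 h in COLO858 (adjusted p = 0.0104). KCNH1 (Kv10.1, EAG1) was measured in MMACSF alone, at 1.01 and 1.16 in DMSO and 0.585 and 0.831 at 48 h. In COLO858 it stayed under the minimum but went the other way, from 0.199 and 0.257 in DMSO to 0.667 and 0.794 at 48 h. Its difference of lines passed 0.05 at 24 h and at 48 h in limma but missed 0.01.

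**Figure D3:**
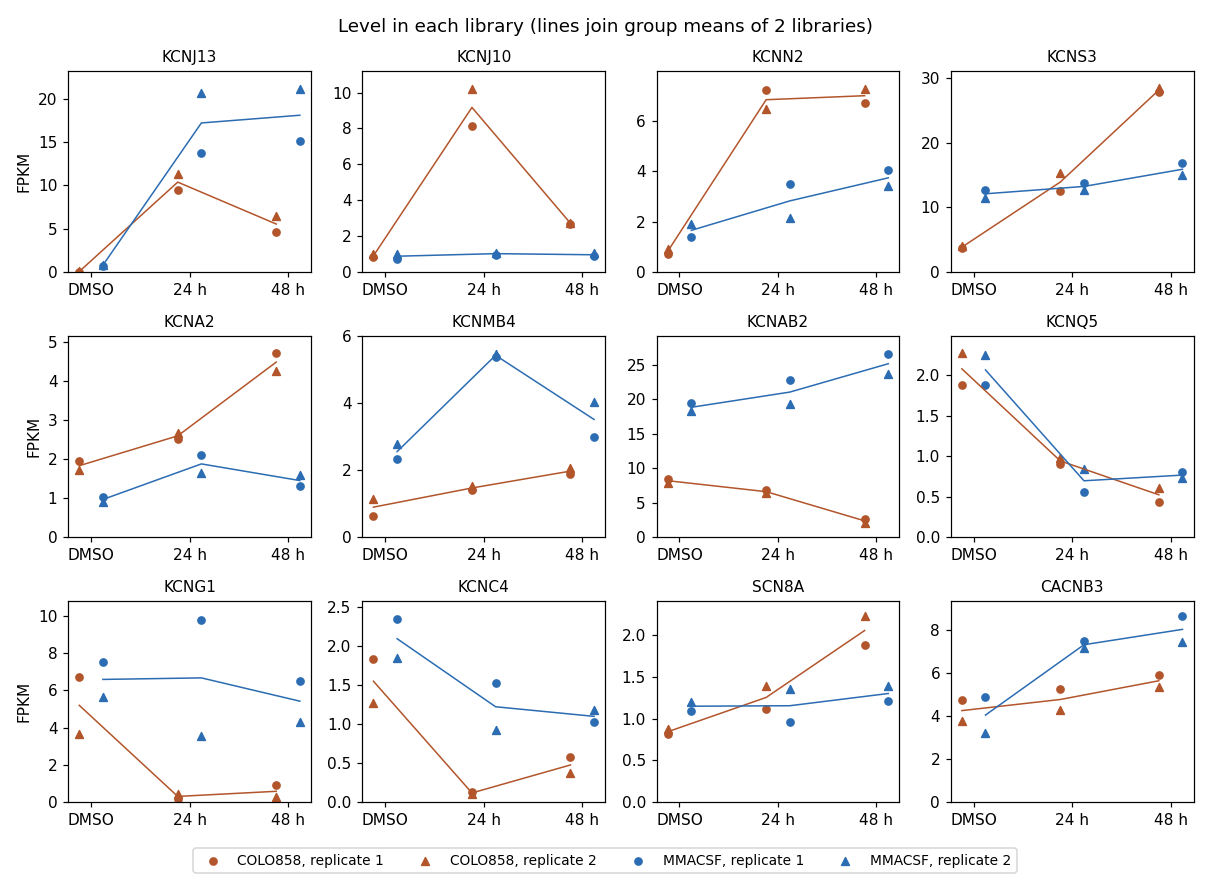
FPKM of 12 channel genes in each library (circles, replicate 1; triangles, replicate 2; lines join the means of 2 libraries; COLO858 in brown and MMACSF in blue; each panel has its own axis from 0). KCNS3 climbs from about 4 to 28 FPKM in COLO858, KCNJ10 is highest at 24 h in that line, and KCNJ13 leaves the baseline in both.

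Of the auxiliary subunits, KCNAB2 (Kvbeta2, a cytoplasmic subunit that aids surface delivery of Kv1 channels, chr1:6050987-6161253, plus strand) was the channel gene of highest level in MMACSF. In COLO858 it was at 8.51 and 7.89 FPKM in DMSO, 6.87 and 6.34 at 24 h, and 2.62 and 2.10 at 48 h. In MMACSF it was at 19.5 and 18.3 in DMSO, 22.8 and 19.3 at 24 h, and 26.6 and 23.8 at 48 h. The COLO858 conditions descended without overlap, while both MMACSF libraries at 48 h lay above DMSO. KCNAB2 fell 3.47-fold in COLO858 at 48 h (log2 fold-change -1.46 ± 0.15, limma adjusted p = 0.00384), and in MMACSF the change was 0.40 ± 0.14 (0.0964). The difference of lines at 48 h was -1.85 ± 0.19 (0.000449) and passed with any 1 of the 12 libraries left out (0.000917 to 0.00347), though the COLO858 call alone was lost without any 1 of the 6 (0.0147 to 0.032).

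KCNE2 (MiRP1, a single-span beta subunit, chr21:35736305-35743680, plus strand) was listed at 0 and at 0.429 FPKM in the MMACSF DMSO libraries, 0.767 and 1.15 at 24 h, and 1.34 and 1.79 at 48 h. These 3 conditions did not overlap, but the 48 h change of 1.10 ± 0.24 had an adjusted p of 0.027 in limma. In COLO858 it stayed under the minimum in each condition. Another 3 auxiliary genes, named after their values were seen, had an adjusted p under 0.05 in one condition: KCNE4 and KCNRG at 48 h in MMACSF (0.0215 and 0.0198) and KCNIP2, a KChIP that binds Kv4 channels, at 24 h in COLO858 (0.0208). KCNE4 was at 2.37 and 3.33 FPKM in DMSO and 5.64 and 6.62 at 48 h in MMACSF. KCNRG shares 66.8% of its exon bases with TRIM13 on the same strand, so its values are uncertain. The remaining 4 auxiliary genes, KCNAB1, KCNE3, KCNIP3 and KCNIP4, had no adjusted p under 0.05 against DMSO.

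The tandem-pore channels, which carry background potassium current, were few. KCNK2 (TREK-1, opened by stretch, chr1:215179118-215410433, plus strand) was at 2.51 to 3.25 FPKM across the 6 MMACSF libraries with overlap between groups. In COLO858 it was at 0.54 and 0.478 in DMSO, 0.457 and 0.796 at 24 h, and 1.06 and 1.48 at 48 h (0.58 ± 0.18 at 48 h, limma adjusted p = 0.0655). KCNK5 (TASK-2, sensitive to extracellular pH, chr6:39156747-39197251, minus strand) was measured in COLO858 alone, at 0.436 and 0.336 in DMSO, 0.198 and 0.149 at 24 h, and 1.85 and 1.00 at 48 h. Both 48 h libraries stood above the rest (0.79 ± 0.20, adjusted p = 0.0429), and neither gene passed the threshold.

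Among the sodium channels, SCN8A (Nav1.6, chr12:51984050-52206648, plus strand) was the pore gene measured in both lines. It was at 0.811 and 0.872 FPKM in DMSO, 1.11 and 1.39 at 24 h, and 1.88 and 2.22 at 48 h in COLO858, an ascending order without overlap (48 h log2 fold-change 0.73 ± 0.15, limma adjusted p = 0.022). In MMACSF it ran from 0.954 to 1.39 over all 6 libraries (0.10 ± 0.17 at 48 h, 0.704). SCN9A was measured in COLO858 alone, at 0.374 and 0.529 in DMSO and 1.04 and 1.31 at 48 h (0.0533).

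CACNA1D (Cav1.3, an L-type pore, chr3:53362990-53847760, plus strand) was the single calcium channel pore measured, and in MMACSF alone. It was at 2.14 and 2.07 FPKM in DMSO, 3.56 and 4.22 at 24 h, and 3.72 and 4.0 at 48 h there, and every drug library lay above DMSO. The change was 0.65 ± 0.15 at each time, with limma adjusted p of 0.0357 and 0.0317. The difference of lines at 48 h, -0.38 (0.185), turned to 0.41 (0.643) with a pseudocount of 0.1 FPKM.

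The auxiliary subunits of calcium channels were present in both lines although pores were scarce. CACNA2D1 (alpha2delta-1, the target of gabapentin, chr7:81575760-82073272, minus strand) was at 1.95 and 2.57 FPKM in DMSO, 3.65 and 4.58 at 24 h, and 4.44 and 4.69 at 48 h in COLO858 (48 h 0.78 ± 0.18, limma adjusted p = 0.0302). In MMACSF it was at 2.49 and 2.85, then 3.75 and 5.65, then 3.35 and 3.99 (0.0984 at 24 h and 0.28 at 48 h). All 8 drug libraries lay above the DMSO libraries of their line. CACNB3, a cytoplasmic beta subunit (chr12:49207577-49222724, plus strand), was at 4.90 and 3.22 in DMSO, 7.51 and 7.17 at 24 h, and 8.66 and 7.45 at 48 h in MMACSF (48 h 0.86 ± 0.20, 0.034), and at 4.74 and 3.79, 5.29 and 4.28, and 5.93 and 5.38 in COLO858 (0.34 ± 0.17, 0.211). No call was made for these genes or for CACNB1, the third of the group.

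Taking the lines side by side, the response of 3 of 36 channel genes differed between them past the threshold at 24 h, against 3.71% of all 13595 genes in the joint fit, and 3 of 36 at 48 h, against 7.48%. These were KCNJ10, KCNN2 and KCNS3 at 24 h, and KCNS3 and KCNAB2 were among those at 48 h. The responses of KCNJ10 and KCNN2 at 24 h and of KCNS3 at both times were greater in COLO858, and that of KCNAB2 at 48 h was lower in COLO858. With the threshold at 0.05, 4 and 14 of 36 differed, where 9.03% and 15.6% of all genes passed. Whether the tables of the lines were scaled together is not given, so levels were not tested between lines and these tests concern changes from each line's own DMSO.

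**Figure D4:**
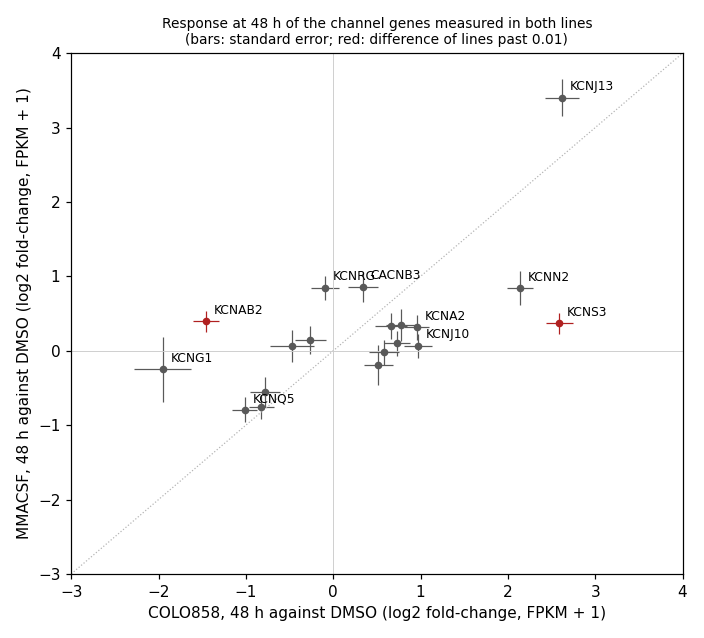
Log2 fold-change at 48 h against DMSO in COLO858 (horizontal) and MMACSF (vertical) for 19 channel genes measured in both lines, with standard errors as bars and the dotted line at equal change. KCNS3 and KCNAB2, in red, are those whose responses differed past 0.01, and KCNJ13 lies high on both axes.

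For context, a list of 81 other ion channel and pump genes (TRP channels, purinergic and chloride channels, sodium-potassium and calcium pumps and the like, with REST, a repressor of neuronal genes) was followed in the same fits, with 78 found in the tables and 53 tested in each line. In COLO858, 6 rose and 1 fell at 24 h and 6 rose and 2 fell at 48 h, where 4.11% and 5.71% of all genes and then 4.74% and 4.73% did. In MMACSF, 2 rose and 1 fell at 24 h and 5 rose and 2 fell at 48 h, where 2.22% and 3.6% of all genes and then 3.42% and 5.41% did. The median gene of this list stood 0.36 and 0.14 above DMSO in COLO858 on the log2 scale, and 0.23 and 0.22 above it in MMACSF.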

How the data were processed

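RNA was measured in 12 libraries, 2 per condition, prepared with a stranded mRNA kit and sequenced as single reads. The FPKM values, which the authors deposited as 1 table per cell line, came from TopHat alignments against hg19 and from Cuffdiff. The annotation, program versions, strand setting and scaling between libraries are not given in the sources used here. Depth is unknown, because FPKM hold no read counts. Every one of the 12 columns entered the fits.

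Channel genes and role lists were chosen with earlier results of these data known. Each line was fitted on its own in limma 3.58.1 (R 4.3.3) with log2(FPKM + 1) modelled on the 3 conditions and moderated variances that followed the mean level, for genes whose group mean reached 1 FPKM in any condition. The difference between lines was the interaction in a fit of all 12 libraries. Tests were two-sided, with Benjamini-Hochberg adjustment across the genes tested and a threshold of 0.01. The steps were tested on simulated data. Alternatives were a pseudocount of 0.1 FPKM, no minimum, the replicate number as a block, median-ratio rescaling, small RNA genes left out, a threshold of 0.05, and each library left out in turn.

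Named genes were all measured channel genes past the threshold in any comparison, the 3 of highest mean level in each line, and, in each role list and line, the one of highest level and the one of largest change at 48 h; others were named after their values were seen, as stated beside them. Counts include 2 channel genes whose own results are not reported here, and the figures leave these out. Gene positions and exon overlaps are from GENCODE v44 lifted to GRCh37, in which 136 of the 138 genes were found. Promoters are from RefSeq on GRCh38.p14.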

Additional observations from a re-analysis of the deposited data

Results flagged for a closer look

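The following responses differed between COLO858 and MMACSF by a test of the difference itself, an interaction in limma over the 12 libraries, given as the log2 fold-change of COLO858 minus that of MMACSF. At 24 h the differences were 2.30 for KCNJ10, 1.60 for KCNN2 and 1.50 for KCNS3. KCNJ10 went from 0.815 and 0.991 FPKM in DMSO to 8.14 and 10.2 at 24 h in COLO858. In MMACSF it went from 0.75 and 1.01 to 0.966 and 1.08. At 48 h the differences were 2.22 for KCNS3 and -1.85 for KCNAB2. KCNS3 went from 3.71 and 3.96 FPKM in DMSO to 27.8 and 28.4 at 48 h in COLO858. In MMACSF it went from 12.7 and 11.4 to 16.8 and 14.9. The 24 h difference of KCNN2 (limma adjusted p = 0.00879) missed the threshold with a pseudocount of 0.1 FPKM (0.0109) and with no minimum (0.0133).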

How the results depend on the processing

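With 2 libraries per condition, leaving out 1 library at a time moved the calls over all genes as well as those of the channels. In COLO858 the share of all genes called fell at 24 h, at 48 h and between the times, from 9.82%, 9.47% and 1.38%. The channel counts fell at 24 h and at 48 h in that line and stayed at 0 between the times. They were 0 to 0 in MMACSF at 24 h (0.458% to 0.793%), 0 to 1 at 48 h (0.905% to 3.4%) and 0 to 0 between the times (0.119% to 0.365%, from 0.222%), and for the difference of lines 1 to 3 at 24 h (1.56% to 2.93%) and 2 to 5 at 48 h (4.1% to 6.59%). A pseudocount of 0.1 FPKM kept every count within 1.5 times its main value, but the differences of lines at 48 h of KCNJ13 and CACNA1D turned to 0.81 and 0.41, neither past the threshold. With no minimum, the differences of lines numbered 5 at 24 h (2.95% of all genes) and 8 at 48 h (5.64%) instead of 3 and 3. Median-ratio rescaling gave 1 between the times in COLO858 (2.07%) and 6 for the difference at 48 h (8.79%), and took the lower calls in COLO858 at 24 h from 2 to 0. Without small RNA genes the counts were 10 in COLO858 at 48 h (13.9%), 2 between its times (2.82%), 4 in MMACSF at 48 h (13.9%) and 7 for the difference at 48 h (8.67%). At a threshold of 0.05, COLO858 had 12 at 24 h (25.8%), 17 at 48 h (26%) and 3 between the times (6.37%), MMACSF had 5 and 10 (20.3% and 24.1%), and the difference at 48 h gave 14 (15.6%). The cause of these shifts was not tested.

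The replicate numbers are shared by the conditions, but no source says what a number stands for. After removal of the group means, same-numbered COLO858 libraries correlated at 0.196 to 0.211 over all genes, and those of MMACSF at 0.0628 to 0.113. Without small RNA genes these were 0.753 to 0.779 and 0.59 to 0.673, and over the channel genes 0.327 to 0.496 and 0.359 to 0.587. With the replicate number as a block, the counts were 13 in COLO858 at 48 h (43.7% of all genes passed) and 5 between its times (18%), 2 and 8 in MMACSF at 24 and 48 h (26.1% and 30.1%), and 5 and 9 for the difference of lines at 24 and 48 h (17.6% and 25.3%), while COLO858 at 24 h had 9 (45%) and MMACSF between its times 0 (0.254%). All calls of the fit without the block were among those made with it.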

Other observations

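A run of 5 sodium channel genes on chromosome 2 (SCN3A, SCN2A, SCN1A, SCN9A and SCN7A, from chr2:165944036-166060560 to chr2:167260083-167467992 on GRCh37) was looked at after values were seen. SCN9A alone of them reached the minimum, so the others were outside the main test. In COLO858, SCN1A read 0.057 and 0.02 FPKM in DMSO, 0.474 and 0.637 at 24 h and 0.304 and 0.245 at 48 h. SCN2A read 0.23 and 0.391 in DMSO, 0.837 and 1.08 at 24 h and 0.771 and 1.15 at 48 h. SCN3A read 0.005 and 0.027, then 0.215 and 0.183, then 0.045 and 0.11, and SCN7A read 0.006 and a listed 0, then 0.027 and 0.031, then 0.166 and 0.338. SCN9A, which lies between SCN1A and SCN7A, read 0.374 and 0.529, then 0.96 and 1.33, then 1.04 and 1.31. In each of the 5 genes all drug libraries lay above both DMSO libraries, as they did in 21.2% of the 18234 genes with a value in COLO858 and in 15.4% of the 5538 of these under the minimum. In the fit with no minimum, SCN1A rose at 24 h (0.58, limma adjusted p = 0.00829) and the other 4 did not pass 0.01. In MMACSF the 5 genes were between a listed 0 and 0.177 FPKM in every library, and SCN1A and SCN7A were listed at 0 throughout.

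Among ion channels and pumps that are neither voltage-gated nor potassium channels, a few moved by more than most channel genes described above. P2RX7, an ATP-gated cation channel, rose in both lines: from 6.37 and 6.35 FPKM in DMSO to 39.5 and 44.4 at 24 h and 25.2 and 24.3 at 48 h in COLO858, and from 52.0 and 56.9 to 197 and 235 and to 229 and 252 in MMACSF. TRPV2, a calcium-permeable channel, fell in both: from 23.8 and 21.3 to 5.56 and 5.18 at 24 h and 6.09 and 5.20 at 48 h in COLO858, and from 114 and 99.7 to 37.7 and 36.3 and to 39.4 and 37.1 in MMACSF. TRPM8, the cold and menthol receptor, fell in COLO858 at 48 h, from 10.6 and 13.9 to 0.891 and 0.969 (log2 fold-change -2.77, limma adjusted p = 0.00111). TRPM1, a channel gene of the melanocyte lineage, rose in COLO858 from 0.076 and 0.306 to 10.7 and 10.0 at 24 h and 4.91 and 6.69 at 48 h, while MMACSF held 290 to 433 FPKM throughout. These genes were named after their values were seen.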
